A study of Schizosaccharomyces pombe with 6 samples.

Results

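The genes described here encode the RNA interference and heterochromatin machinery of the fission yeast Schizosaccharomyces pombe. They are ago1 (SPCC736.11), chp1 (SPAC18G6.02c), tas3 (SPBC83.03c), rdp1 (SPAC6F12.09), hrr1 (SPCC1739.03), dcr1 (SPCC188.13c), stc1 (SPBP8B7.28c), clr4 (SPBC428.08c), swi6 (SPAC664.01c) and epe1 (SPCC622.16c). They were chosen by name, as 10 of the 6878 features counted in the series, and each was found under its systematic ID. The data are small RNAs pulled down with Ago1, so the question is how much of the small RNA that the pathway carries comes from the pathway's own genes, in growing cells and after nitrogen starvation. All 6 libraries came from the strain labelled wt (975 h+), grown in the minimal medium EMM with supplements. The 3 libraries of the 0h group came from growing control cells, and the 3 of the 24h group from cells kept for 24 h in EMM without nitrogen. The pull-down used beads against the FLAG peptide, and since no tagged allele of ago1 is listed for the strain, the binding to Ago1 is taken from the labels. Nothing in the labels said whether the replicates were separate cultures, so p-values measure the spread between these libraries, which may be technical. A culture is measured in bulk, and a change in fewer cells cannot be told apart from a smaller change in each cell.

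In this pathway the Dicer ribonuclease Dcr1 cuts double-stranded RNA into small RNAs, which are loaded onto the Argonaute Ago1. Ago1 forms the RITS complex with Tas3 and with Chp1, a chromodomain protein that binds methylated histone H3. RITS finds nascent transcripts of repeats at the centromere, recruits the RNA-directed RNA polymerase complex RDRC, which holds Rdp1 and the helicase Hrr1, and through Stc1 recruits the histone methyltransferase Clr4. The HP1 protein Swi6 binds the mark that Clr4 makes, and Epe1, a JmjC-domain protein, counters the spread of heterochromatin.

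The libraries differed widely in depth, from 48040 to 145861 reads assigned to features at 0h and from 54393 to 758789 at 24h. Each file also tallied 90.3 to 96.4% of the aligned reads as set aside for low mapping quality. A further 442108 to 1177203 reads per library at 0h and 46931 to 856059 at 24h were tallied as lying on no feature. Shares of assigned reads are therefore not shares of all the small RNA pulled down. Of the assigned reads, 44.7% ± 2.54 in the 0h group and 82.8% ± 2.08 in the 24h group lay on coding features (SD, n = 3), so a gene with a steady place among coding genes gains share of the whole. Levels below are in CPM (reads of a gene per library size, on the usual CPM scale) with TMM factors, which set the typical feature to no change (median log2 fold change -0.02 over 1716 tested features). With library totals in place of TMM that median was 0.69, and with all aligned reads it was 3.55. In 0h replicate 1, a single read was worth 30.1 CPM, against 1.21 CPM in 24h replicate 3. Reads on ste11 and mei2, which starved cells switch on, went from 12 to 1087 and from 13 to 1529 between the groups. In scaled units the group means went from 43.3 to 883 CPM for ste11 and from 49.6 to 1230 CPM for mei2. Both went in the direction of the labels, though these are small RNA reads and not mRNA.

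The machinery's own genes carried few small RNA reads at either time, as did most coding genes, of which 31.4% had enough reads for the test. The 10 genes together held 42, 77 and 92 reads in 0h replicates 1, 2 and 3, and 54, 253 and 565 reads in 24h replicates 1, 2 and 3. As shares of assigned reads these were 0.0874, 0.0684 and 0.0631% at 0h, and 0.0993, 0.101 and 0.0745% at 24h. The Wilson 95% intervals reached from 0.0514 to 0.118% over the 0h libraries and from 0.0686 to 0.130% over the 24h libraries, for counting error only. The shares overlapped between the groups, with a mean of 0.0730% ± 0.0128 (SD, n = 3) at 0h against 0.0916% ± 0.0149 (SD, n = 3) at 24h, a ratio of 1.26.

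The direction of this pooled difference depended on the denominator. Of the reads on protein-coding features, the 10 genes held 0.209, 0.146 and 0.139% at 0h and 0.119, 0.120 and 0.0925% at 24h. Every 24h library then lay below every 0h library, at 0.671 times the 0h mean (0.165% ± 0.0384 against 0.110% ± 0.0156, SD, n = 3). As CPM of all aligned reads the pooled level was 3.85 ± 0.454 at 0h and 34.8 ± 18.9 at 24h, 9.04-fold higher with no overlap, where all protein-coding features together were 12.8-fold higher. No test was made on the pooled reads, because the genes were chosen with results of these data known.

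**Figure D1:**
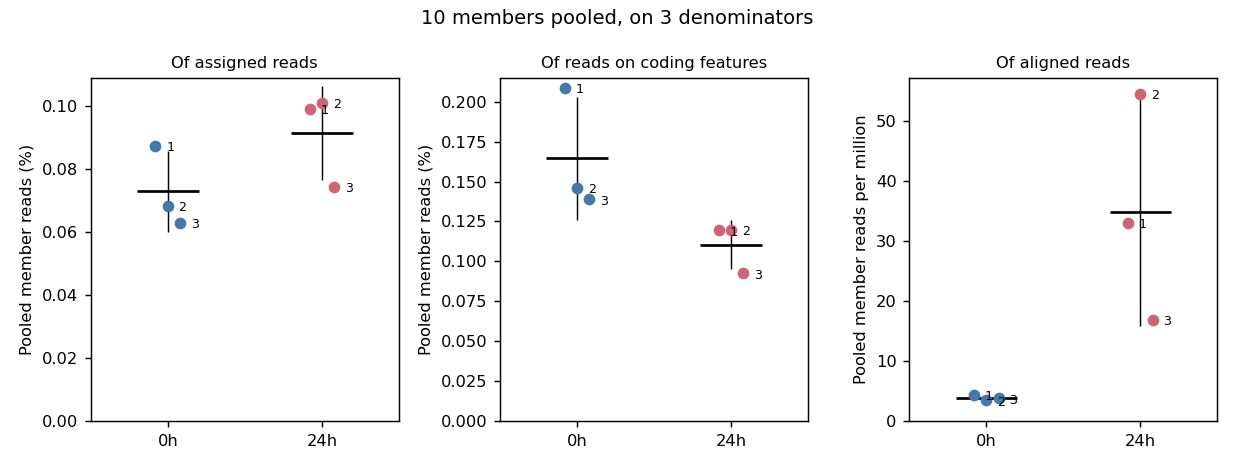
Pooled reads of the 10 genes in each library (points numbered by replicate, blue 0h, red 24h, black line mean, vertical line SD, n = 3) as a percent of assigned reads, as a percent of reads on protein-coding features, and as CPM of all aligned reads. The ratio of the 24h mean to the 0h mean is 1.26 in the left panel, 0.671 in the middle panel and 9.04 in the right panel.

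Of the 10 genes, ago1 and rdp1 alone had enough reads for the test across all features, and neither passed. Over the whole table, 13.1% of the 1716 tested features were higher at 24h and 12.8% lower (quasi-likelihood test of edgeR, threshold 0.05 on the Benjamini-Hochberg adjusted p). Among the 2 tested genes 0 were called in either direction, 0 had an unadjusted p below 0.05, and DESeq2 called 0. Of all 5106 protein-coding features, 31.4% had enough reads to be tested. The other 8 genes are described by their counts and by a pooled ratio of TMM-scaled reads, 24h over 0h, with an exact 95% counting interval that leaves out the spread between replicates. In this ratio the deepest libraries weigh most, so its direction can differ from that of the group means.

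In the RITS complex, ago1, the Argonaute itself, had the most reads of the 10 genes. It had 13, 20 and 26 reads in the 0h libraries and 15, 104 and 192 in the 24h libraries. In scaled units that was 392, 211 and 222 CPM at 0h and 224, 262 and 231 CPM at 24h. The 24h libraries lay within the range of the 0h libraries, of which replicate 1 was the highest. The log2 fold change was -0.11 (SE 0.34, 95% interval -0.87 to 0.65), with an edgeR adjusted p of 0.841, and its sign turned with library totals (0.64) and per aligned read (3.50). Its pooled ratio was 1.00 (0.755 to 1.34).

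The tas3 gene, whose GW-motif protein joins Ago1 to Chp1, was the one gene of the 10 whose 24h libraries all lay below its 0h libraries. By assigned reads, 24h replicates 2 and 3 were deeper than every 0h library, but 24h replicate 1 (54393) lay within the 0h range (48040 to 145861). The reads on tas3 were 6, 7 and 6 at 0h and 0, 6 and 13 at 24h. In scaled units that was 181, 73.9 and 51.1 CPM at 0h and 0, 15.1 and 15.7 CPM at 24h. The 3 libraries at 0h were all higher, replicate 1 by the most, and the pooled ratio was 0.190 (0.0950 to 0.378). The gene missed the low-count filter and so had no test in the main fit. With no filter, edgeR gave a log2 change of -2.17 (SE 0.64) and an adjusted p of 0.00969, in a fit that called 5.43% of 6207 features lower. In that fit it was the 1 gene of the 10 called, and the call was lost with library totals (adjusted p = 0.0506) and without 0h replicate 1 (adjusted p = 0.0656). Per aligned read the edgeR value was 0.69 (adjusted p = 0.540) and the groups overlapped.

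Small RNA on ucp8, a gene downstream of tas3, was also lower in scaled CPM. Of the counted coding genes that do not overlap tas3, ucp8 is the nearest downstream in the annotation of assembly ASM294v3. It runs toward tas3, but a gene that was not counted could lie between them. The ucp8 gene had enough reads for the test. Its level ran from 181 to 190 CPM over the 0h libraries and from 62.9 to 76.0 CPM over the 24h libraries, with no overlap. It fell by 1.40 on the log2 scale (SE 0.32, 95% interval -2.11 to -0.68), with an edgeR adjusted p of 0.0110, in a fit that called 12.8% of tested features lower. The edgeR call was lost with library totals (-0.70, adjusted p = 0.216), with no filter (-1.06, adjusted p = 0.0968) and without 0h replicate 2 (adjusted p = 0.0531). Per aligned read ucp8 was higher (2.097, edgeR adjusted p = 0.00867). Among protein-coding features with a count, 14.4% also lay lower at 24h without overlap. For mmi1, ade3, prp45 and SPBP8B7.26, the counted genes found to converge on ago1, rdp1, dcr1 and stc1, the groups overlapped.

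The third RITS gene, chp1, was close to the limit of counting, with 0, 5 and 1 reads at 0h and 2, 14 and 11 at 24h. Its pooled ratio was 0.853 (0.345 to 2.53), and the groups overlapped, with 20.4 ± 28.3 CPM (SD, n = 3) at 0h against 26.1 ± 11.5 CPM (SD, n = 3) at 24h.

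**Figure D2:**
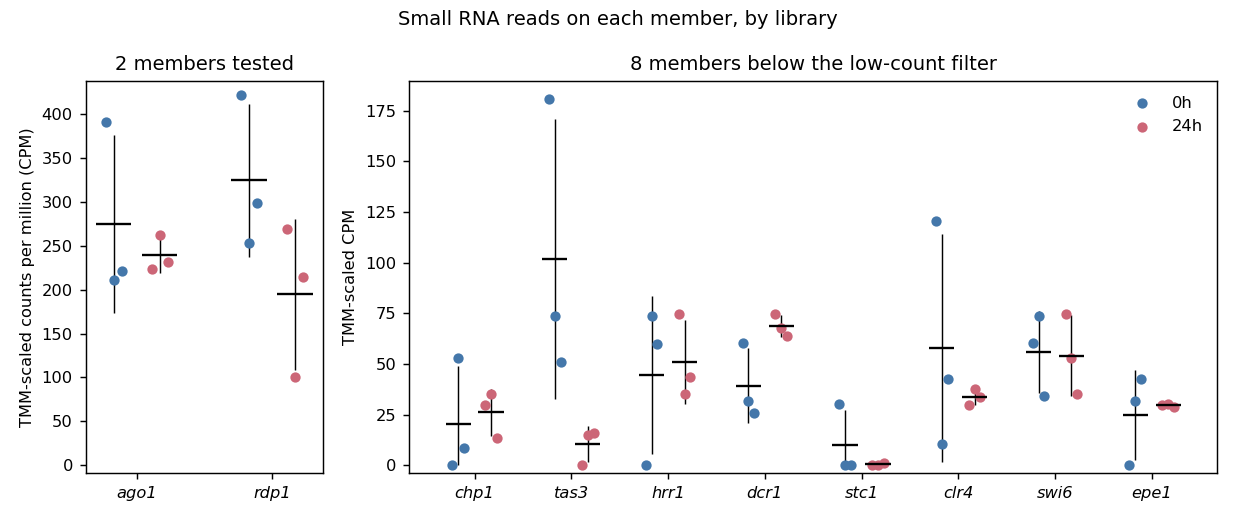
TMM-scaled CPM of each gene in each library (points, blue 0h, red 24h, replicates 1 to 3 from left to right), with the mean (black line) and SD (vertical line, n = 3, drawn from 0 upward where it would go below). The tested genes ago1 and rdp1 are on the left, and among the other 8 on the right tas3 lies lower and dcr1 higher in every 24h library.

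In RDRC, rdp1, the polymerase that copies transcripts into double-stranded RNA, had 14, 24 and 35 reads at 0h and 18, 40 and 178 at 24h. In scaled units that was 422, 253 and 298 CPM at 0h and 269, 101 and 215 CPM at 24h. The highest 24h library lay just above the lowest 0h library. The log2 fold change was -0.75 (SE 0.42, 95% interval -1.67 to 0.16), with an edgeR adjusted p of 0.204. Its pooled ratio of 0.613 had a counting interval below 1 (0.470 to 0.808), which does not hold the replicate spread. The sign turned per aligned read (2.62, edgeR adjusted p = 0.00115), a scale on which 93.9% of the 1716 features, ago1 among them, were called higher. The helicase gene hrr1 had 0, 7 and 7 reads at 0h and 5, 14 and 36 at 24h, a pooled ratio of 0.745 (0.409 to 1.45). By group means hrr1 went the other way, from 44.5 ± 39.2 CPM at 0h to 51.1 ± 20.8 CPM at 24h (SD, n = 3), and the groups overlapped.

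The Dicer gene dcr1 was the only one of the 10 whose 24h libraries all lay above its 0h libraries. It had 2, 3 and 3 reads at 0h and 5, 27 and 53 at 24h. In scaled units that was 60.2, 31.7 and 25.6 CPM at 0h and 74.7, 68.0 and 63.9 CPM at 24h. The pooled ratio was 2.01, with a counting interval that held 1 (0.977 to 4.82). With no filter, edgeR gave a log2 change of 1.32 (SE 0.63) with an adjusted p of 0.166, which did not pass, in a fit that called 7.72% of features higher. Among protein-coding features with a count, 13.7% lay higher at 24h without overlap and 14.4% lower. For the 10 genes described here the numbers were 1 (dcr1) and 1 (tas3), a share near that background.

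The genes for the link to chromatin and for heterochromatin itself had few reads, and their levels overlapped between groups. The stc1 gene, whose LIM-domain protein ties RITS to the Clr4 complex, had 1 read in 0h replicate 1, 1 in 24h replicate 3 and 0 in the other libraries. The methyltransferase gene clr4 had 4, 1 and 5 reads at 0h and 2, 15 and 28 at 24h. Its level ran from 10.6 to 120 CPM at 0h and from 29.9 to 37.8 CPM at 24h, with a pooled ratio of 0.853 (0.424 to 1.90). The HP1 gene swi6 had 2, 7 and 4 reads at 0h and 5, 21 and 29 at 24h, with 56.1 ± 20.2 CPM (SD, n = 3) at 0h against 54.2 ± 19.9 CPM (SD, n = 3) at 24h. Its pooled ratio was 0.802 (0.433 to 1.60). The anti-silencing gene epe1 had 0, 3 and 5 reads at 0h and 2, 12 and 24 at 24h. Its 24h libraries were nearly equal, at 29.9, 30.2 and 28.9 CPM, inside the 0h range of 0 to 42.6 CPM. The mean of epe1 was 24.8 ± 22.1 CPM at 0h against 29.7 ± 0.66 CPM at 24h (SD, n = 3), and its pooled ratio was 0.901 (0.414 to 2.23).

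**Figure D3:**
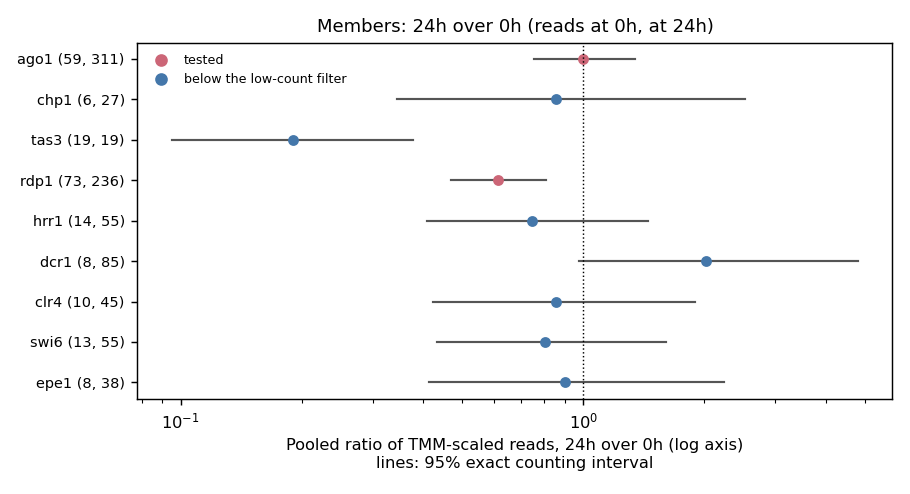
Pooled ratio of TMM-scaled reads at 24h over 0h on a log axis, with 95% exact counting intervals and the read totals at 0h and 24h in parentheses (red, tested genes, blue, genes below the low-count filter). The intervals of tas3 (0.0950 to 0.378) and rdp1 (0.470 to 0.808) lie below 1, and stc1, with 1 read at each time, is not drawn.

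By counting error alone, the interval of 2 of the 9 genes with at least 10 reads in all lay below a ratio of 1 and that of 0 above it. The same interval lay below 1 for 19.6% of 4602 protein-coding features with at least 10 reads and above 1 for 16.1%. Over those coding features the median pooled ratio was 0.948. With no filter, the median log2 change was 0.09 over the 10 genes and 0.18 over all 6207 features in the edgeR fit. Per aligned read, 8 of the 10 genes lay higher in every 24h library, beside 72.5% of protein-coding features with a count, and the exceptions were tas3 and stc1. On that scale the fold between group means was 0.289 for stc1, on 1 read at each time, and ran from 1.43 for tas3 to 22.6 for dcr1 over the other genes, with ago1 at 11.3, rdp1 at 6.30, clr4 at 7.98 and swi6 at 12.4.

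The genes also differed among themselves, even per length. Levels per kilobase of coding sequence (CPM per kb, with lengths from ASM294v3) had a median of 31.8 at 0h and 29.6 at 24h over all protein-coding features. The median coding length of the 10 genes was 2676 bases, against 1138.5 bases over all coding features, so reads per gene overstate their standing. At 0h the order of CPM per kb was ago1 (110 ± 40.4), rdp1 (88.9 ± 23.9), tas3 (61.8 ± 41.9), swi6 (56.8 ± 20.5) and clr4 (39.3 ± 38.4, SD, n = 3 each). Below them stood stc1 (15.5 ± 26.8), hrr1 (14.8 ± 13.1), dcr1 (9.49 ± 4.49), epe1 (8.70 ± 7.77) and chp1 (7.09 ± 9.83). Neighbours in this order overlapped in every case.

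At 24h more neighbours in the order of CPM per kb were apart. The ago1 gene stood first at 95.5 ± 8.0 CPM per kb, with every 24h library above those of the next gene. Then came swi6 (54.9 ± 20.1) and rdp1 (53.4 ± 23.5), which overlapped each other and lay above clr4 (22.9 ± 2.68) in every library. The hrr1 (17.04 ± 6.94) and dcr1 (16.7 ± 1.32) genes overlapped, and dcr1 lay above epe1 (10.4 ± 0.232) in every library. The chp1 (9.06 ± 3.98), tas3 (6.22 ± 5.39) and stc1 (0.620 ± 1.07) genes were lowest, each overlapping the next (SD, n = 3 each).

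**Figure D4:**
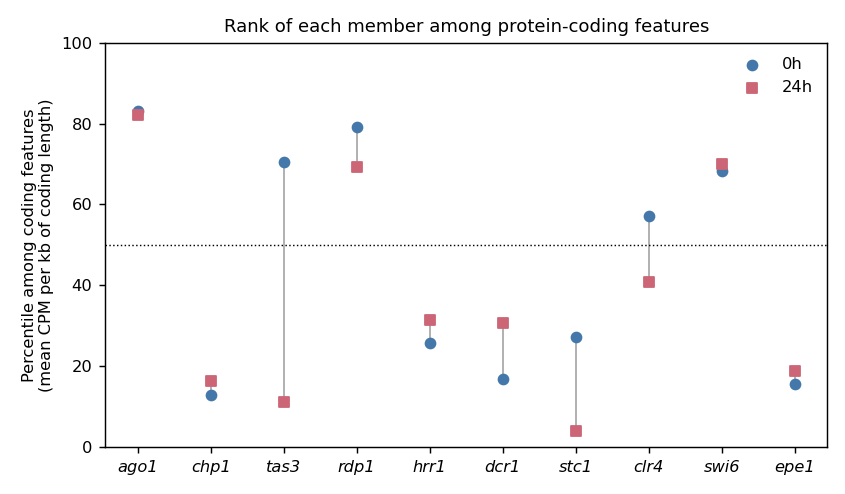
Percentile of each gene's mean CPM per kb of coding length among 5106 protein-coding features, at 0h (blue circles) and 24h (red squares), with a dotted line at the median feature. The ago1 gene stands at the 83.2 and 82.2 percentile, and tas3 moves from the 70.4 to the 11.2 percentile.

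Ranked by CPM per kb among 5106 protein-coding features, ago1 stood at the 83.2 percentile at 0h and the 82.2 at 24h. The rdp1 gene stood at 79.1 and 69.3, and swi6 at 68.3 and 70.0. The tas3 gene stood at 70.4 and 11.2, and at 55.5 at 0h without 0h replicate 1. The clr4 gene stood at 57.1 and 40.9, but its place at 0h rested on 4 reads in 0h replicate 1, without which it was at 30.1, below its place at 24h. The chp1, epe1, dcr1 and hrr1 genes stood between 12.9 (chp1 at 0h) and 31.4 (hrr1 at 24h), and stc1, on 1 read at each time, at 27.2 and 3.86. Together ago1 and rdp1 made up 62.6% ± 4.81 (SD, n = 3) of the pooled reads in growth and 61.2% ± 4.29 (SD, n = 3) after starvation. Within that sum the mix varied between libraries, with rdp1 at 15.8% of the pooled reads in 24h replicate 2 and between 31.2 and 38.0% in the other libraries.

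By complex, RITS genes had 397 ± 154 CPM at 0h and 276 ± 32.0 CPM at 24h, a pooled ratio of 0.806 (0.634 to 1.03). The RDRC genes rdp1 and hrr1 had 369 ± 48.1 and 246 ± 104 CPM (SD, n = 3), a pooled ratio of 0.634 (0.498 to 0.815), of which rdp1 held most. Over all 10 genes the pooled ratio was 0.784 (0.673 to 0.915), and without tas3 it was 0.842 (0.719 to 0.990). The 8 genes other than ago1 and rdp1 gave 0.780 (0.608 to 1.01). All these intervals hold counting error only and leave out the spread between replicates. In each of these sums the groups overlapped, over all 10 genes with 784 to 1265 CPM at 0h against 637 to 806 CPM at 24h. Over coding features with at least 10 reads the median pooled ratio was 0.948.

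The position of the genes was looked up in the order of ASM294v3, since transcripts of convergent genes can overlap and pair. The search took the nearest counted protein-coding gene downstream that did not overlap the gene. For 5 of the 10 genes it converged on them, and for the other 5 it ran in the same direction. Coding genes that overlap any of the 10, named below, and genes that were not counted were left out. A nearer convergent gene may therefore exist. The partner of ago1 is mmi1, whose YTH-domain protein removes meiotic transcripts, with 21 reads at 0h and 88 at 24h (pooled ratio 0.795, interval 0.489 to 1.35). The partner of rdp1 is ade3, a gene of purine synthesis, with 264 ± 110 CPM (SD, n = 3) at 0h against 299 ± 74.4 CPM (SD, n = 3) at 24h. Its log2 fold change of 0.13 (SE 0.37) did not pass (edgeR adjusted p = 0.827). A counted feature on the opposite strand overlapped 5 of the genes (hrr1, dcr1, stc1, clr4 and epe1), and none was overlapped on its own strand. The annotation also places long noncoding RNAs that were not counted on the opposite strand. These overlap ago1, chp1, tas3, rdp1, hrr1, dcr1, clr4 and epe1, and their reads cannot be given. Of 574 features that lie wholly inside a feature of the opposite strand, 85.4% had a read in at least 1 library. HTSeq gives such features no read when strand is ignored and the outer feature is counted over its whole length, so these counts were probably read by strand. The nesting was judged by gene bounds in ASM294v3, and the annotation used for counting is not given. Which strand was taken as that of the gene is not given in the sources used here. The counted overlapping features also had few reads. At 0h and 24h there were 2 and 25 on dms1 (over hrr1), 1 and 12 on spn6 (over dcr1), 5 and 31 on mug30 (over stc1), 0 and 2 on meu6 (over clr4), and 4 and 9 on SPNCRNA.67 (over epe1).

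Of ago1 and rdp1, rdp1 had the higher mean CPM over the 6 libraries. The 3 tested coding features whose log2 CPM followed it most closely were tif213 (Pearson r = 0.974), rav1 (r = 0.961) and sec3 (r = 0.949), given as a description over 6 libraries that fall into 2 groups and differ in depth. None of the 3 passed the test between groups, with edgeR adjusted p of 0.124, 0.270 and 0.0581.

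Most other genes of the pathway also carried few reads. A list of 30 by symbol held the Argonaute chaperone, the remaining RDRC and Clr4 complex subunits, tethers, trimming enzymes, histone deacetylase complex subunits, RNA elimination factors and anti-silencing factors. All 30 had reads, from 3 to 639 per gene over the 6 libraries, but only bdf2 and pla1 had enough for the test. Among these 2, 0 were called in either direction, 0 had an unadjusted p below 0.05, and DESeq2 called 0. The bromodomain gene bdf2, which acts at heterochromatin boundaries, had 361, 391 and 545 CPM at 0h and 478, 342 and 432 CPM at 24h, a log2 change of -0.08 (SE 0.33, edgeR adjusted p = 0.873). The poly(A) polymerase gene pla1 had 122 ± 27.8 CPM (SD, n = 3) at 0h against 92.0 ± 63.1 CPM (SD, n = 3) at 24h, a log2 change of -0.67 (SE 0.49, edgeR adjusted p = 0.338). Ranked by CPM per kb among protein-coding features, bdf2 stood at the 91.4 percentile at 0h and the 90.4 at 24h, and pla1 at 74.2 and 69.6.

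Of the 30 genes, 4 lay lower and 2 higher in every 24h library, beside 14.4% and 13.7% of coding features with a count. These 6 are named after their values were seen. Lower were cid12, for the RDRC subunit of the poly(A) polymerase family (20 and 49 reads at 0h and 24h, ratio 0.465, 0.271 to 0.825), and clr2, for a subunit of the SHREC deacetylase complex (14 and 12 reads, ratio 0.163, 0.0687 to 0.379). The deacetylase gene sir2 (10 and 16 reads, ratio 0.303, 0.129 to 0.748) and the elongation factor gene paf1 (23 and 54 reads, ratio 0.445, 0.269 to 0.760) were also lower. Higher were clr1, for another SHREC subunit (13 and 94 reads, ratio 1.37, 0.764 to 2.67), and red1, whose zinc-finger protein acts in RNA elimination (5 and 78 reads, ratio 2.96, 1.21 to 9.36). With no filter edgeR called 1 of the 30, clr2 (-2.33, adjusted p = 0.0147), in a fit that called 5.43% of 6207 features lower and 7.72% higher. Pooled, the 30 genes had 1852 ± 89.2 CPM at 0h and 1445 ± 109 CPM at 24h. The ratio was 0.789 (0.711 to 0.876, counting error only), beside 0.784 for the 10 genes described here. For the 30 genes the groups did not overlap, with 1756 to 1932 CPM at 0h against 1319 to 1508 CPM at 24h. Those of the 10 genes did overlap.

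**Figure D5:**
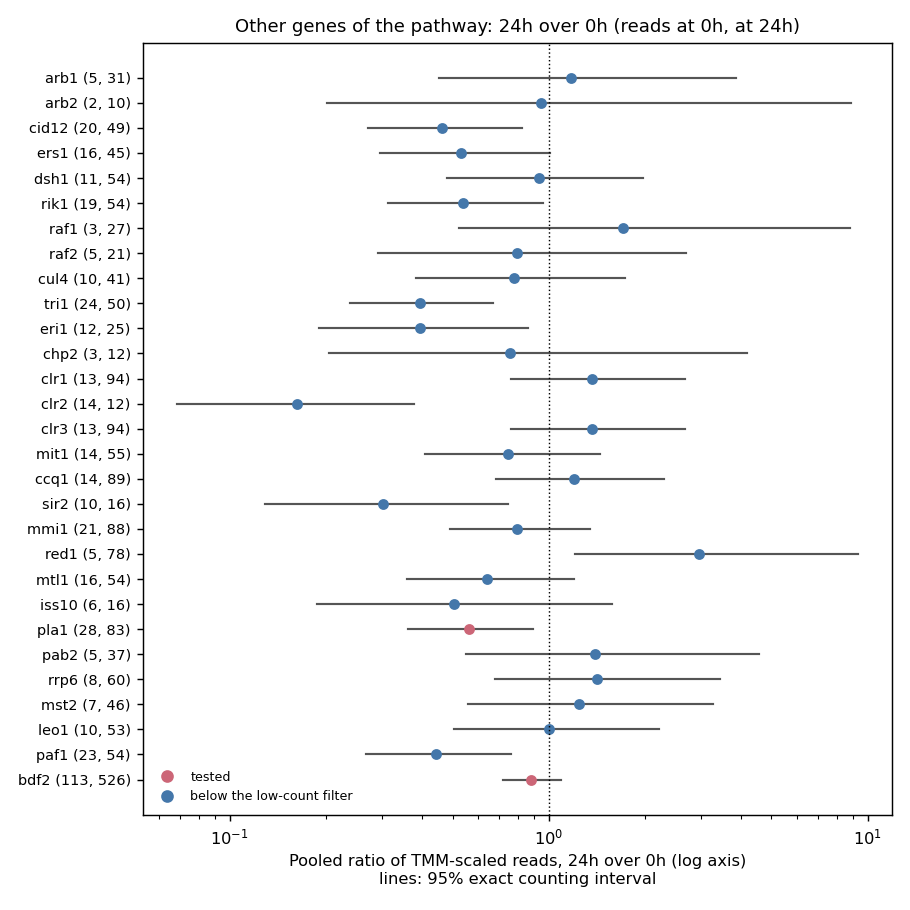
Pooled ratio of TMM-scaled reads at 24h over 0h (log axis) for the other genes of the pathway with more than 3 reads, with 95% exact counting intervals and read totals at 0h and 24h in parentheses (red, tested, blue, below the low-count filter). Intervals below 1 are drawn for 8 of 29 genes and above 1 for red1, beside 19.6% and 16.1% of coding features with at least 10 reads.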

How the data were processed

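Reads of Ago1-associated small RNA were counted in 6 libraries, 3 at 0h and 3 at 24h. The authors deposited raw read counts per feature, whole numbers for 6878 features plus 5 HTSeq tally lines, which stayed out of totals and tests. Cutadapt, Bowtie2 2.1.0 and HTSeq 0.6.1, and the build ASM294v2, are named per the submitters' processing notes, and the sources used here do not give their options. Reads set aside for low mapping quality are not in the counts, so repeated sequence is under-counted. Names, neighbours and coding lengths came from the RefSeq annotation of ASM294v3, in which 6705 IDs matched directly and 16 through an older ID. Because that build differs from the files', no coordinates or sequences are shown.

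Counts were fitted over all features in edgeR 4.0.16 (R 4.3.3) with TMM scaling and a low-count filter (filterByExpr, 10 counts). The robust quasi-likelihood model had group as its only term, and tests were two-sided. P-values were adjusted by Benjamini-Hochberg over 1716 features, at 0.05. The SE was taken as the log2 change over the root of F. Pooled ratios divide summed reads by summed TMM-scaled library sizes, with exact conditional binomial intervals. The intervals cover counting error only and treat reads as independent. Reads have no molecular identifiers, so this cannot be checked, and the intervals may be too narrow. The fit was tested on simulated data. DESeq2 1.42.0, other scalings, filters, a replicate block and leaving out libraries were tried.

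The genes and lists were chosen with earlier results of these data known. By rule, named genes were the 10, any of the list of 30 past the test (0 were), neighbours, and the 3 features most like the one of the 10 with the highest mean among those tested. Outside that rule, bdf2 and pla1 are named as the tested genes of the list, 6 more of the list by their values, and ste11 and mei2 as a check of the labels. Libraries of a group were compared pairwise, and each pair differed by more than sampling noise (chi-square over degrees of freedom from 4.57 to 24.2).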

Additional observations from a re-analysis of the deposited data

How the results depend on the processing

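With aligned reads as library size, the features called were 1611 higher and 4 lower, 2 of 2 tested genes of the machinery were called higher, and 2 of 2 of the other pathway genes. With library totals the features numbered 568 higher and 95 lower, with no low-count filter 479 and 337, and with a minimum count of 30 they were 100 and 76, where fewer features were tested. With no filter 1 gene of the machinery was called lower (tas3) and 1 of the other pathway genes (clr2). DESeq2 changed neither gene count from 0. Leaving out each library in turn gave 110 to 204 higher and 147 to 235 lower features, with the fewest without 0h replicate 2 and 139 higher without 0h replicate 3, 0 calls among the machinery genes in either direction, 0 higher among the other pathway genes, and 0 to 1 lower (paf1, without 0h replicate 3, adjusted p = 0.0396). The pooled ratio of mean shares was 1.26, and 1.18 to 1.39 without each library, 1.15 without ago1, 0.671 of coding reads and 9.04 per aligned read.

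The log2 change of ago1 turned to 0.64 with library totals, 3.50 per aligned read, 0.25 with no filter and 0.14 without 0h replicate 1, where the range without each library was -0.30 to 0.14. That of rdp1 turned to 2.62 per aligned read and otherwise kept its sign. The percentiles without a library were also chosen after seeing the data. Chosen in the same way, tas3 was refitted with no filter under further settings. It turned to 0.69 per aligned read and stayed between -2.51 and -1.80 without each library. The calls of tas3 were kept with the TMM factors of the filtered features (adjusted p = 0.00171), DESeq2 (adjusted p = 0.0302) and the replicate block (adjusted p = 0.0235). The dcr1 gene, refitted in the same way, passed per aligned read (4.47, adjusted p = 6.5e-05) and in none of the other settings run. The cause of these differences was not tested.

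With the replicate number as a block, 279 features were higher and 271 lower, and no gene of the machinery was called (ago1 -0.06, rdp1 -0.81, adjusted p = 0.0748). Same-numbered libraries had correlations of their deviations from the group means of 0.0612, 0.151 and 0.175, not all above 0.1, so they were not treated as pairs. Each library did correlate best with its own number, a hint from the data. Depth limits these genes, since 8 of 10 fell short of the minimum count.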
